A study of Mus musculus with 9 samples.

Results

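The genes described here are 9 components of B cell receptor signalling: Ighm, Lyn, Blk, Syk, Blnk, Btk, Plcg2, Vav1 and Pou2af1. They were picked by name from the 37980 mouse genes of the count table, and all 9 were found through their Ensembl identifiers. Ighm, Blk, Blnk and Pou2af1 were taken as B-restricted (4 genes), since in blood cells they are known above all from the B lineage. Lyn, Syk, Btk, Plcg2 and Vav1 were taken as shared (5 genes), since myeloid cells use them too.

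RNA was sequenced from myeloid progenitors (MPs) sorted from bone marrow as Lin-c-kit+Sca1- cells, 100000 cells a sample. Multipotent progenitors (MPPs) had been mixed with bone marrow helper cells and transplanted into irradiated adult mice. The labels give the sort as 3 months later. NA MPs (4 samples) were Tdtomato+ cells that came from NA LSL/+; Vav-Cre MPPs, in which the Nup98-Hoxa10hd fusion gene (NA) is expressed from the Rosa26 locus once Cre has removed a stop. WT MPs (5 samples) were CD45.2+ cells from recipients of wild-type MPPs, and all mice were C57BL/6. The Vav promoter drives Cre in blood cells of every lineage, so the fusion gene was not limited to MPs. The sources differ on the month of the sort. Since the recipients were themselves CD45.2+, the sources do not tell whether each WT MP came from the MPPs, helper cells or recipient. The gates of the NA MPs and the WT MPs were not the same, and a difference of gate and a difference of genotype cannot be told apart. Nothing says whether each sample was 1 mouse, so the p-values measure the spread between these samples only. That spread was small, with a fitted biological coefficient of variation of 3.55%. Between pairs of samples, chi-square per degree of freedom was 1.14 to 1.73 in WT MPs and 1.58 to 2.64 in NA MPs. Counting error alone gives about 1. Whether samples were parts of 1 pool was not tested.

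The B cell receptor is a membrane immunoglobulin, whose first heavy chain is encoded by Ighm, paired with the signalling chains CD79A and CD79B. The Src family kinases LYN and BLK phosphorylate those chains, SYK docks on them, and the adaptor BLNK then brings BTK, PLCG2 and VAV1 together, which opens the calcium, protein kinase C and small GTPase branches. In a pre-B cell the heavy chain sits with a surrogate light chain in place of a light chain and signals through the same enzymes. POU2AF1 (OBF-1) is a coactivator that joins the octamer-binding factors POU2F1 and POU2F2 on immunoglobulin promoters. Myeloid cells use LYN, SYK, BTK, PLCG2 and VAV1 below Fc receptors and integrins.

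The samples held between 6602851 and 6734284 counts, and levels are given as CPM, counts scaled to a normalised library of 1000000 counts. A count of 3, the floor used here for a gene listed at 0, is 0.45 to 0.453 CPM. The MPs carried their defining genes: Mpo, Elane, Prtn3, Ctsg, Cd34, Kit, Cebpa and Csf1r summed to between 24300 and 26600 CPM in NA MPs and between 23500 and 24500 CPM in WT MPs.

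B-restricted and shared members moved by very different amounts. Among the members that passed the filter on low counts (8 of 9, all but Blk), 6 were higher in NA MPs at an adjusted p under 0.05 and 0 were lower, where 17.9% of the 11966 tested genes were higher and 16.3% were lower. The 3 tested B-restricted members were all higher, with a median log2 fold change of 2.65, and 3 of the 5 shared members were higher, with a median of 0.116. The median over all tested genes was -0.00131. Blnk and Pou2af1 rose more than 2-fold, which 2.64% of all tested genes did, and no shared member did. Every NA MP sample lay above every WT MP sample for 5 of the 8 tested members, against 14.3% of all tested genes. These are bulk samples, so more cells of a type and more RNA per cell cannot be told apart.

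**Figure D1:**
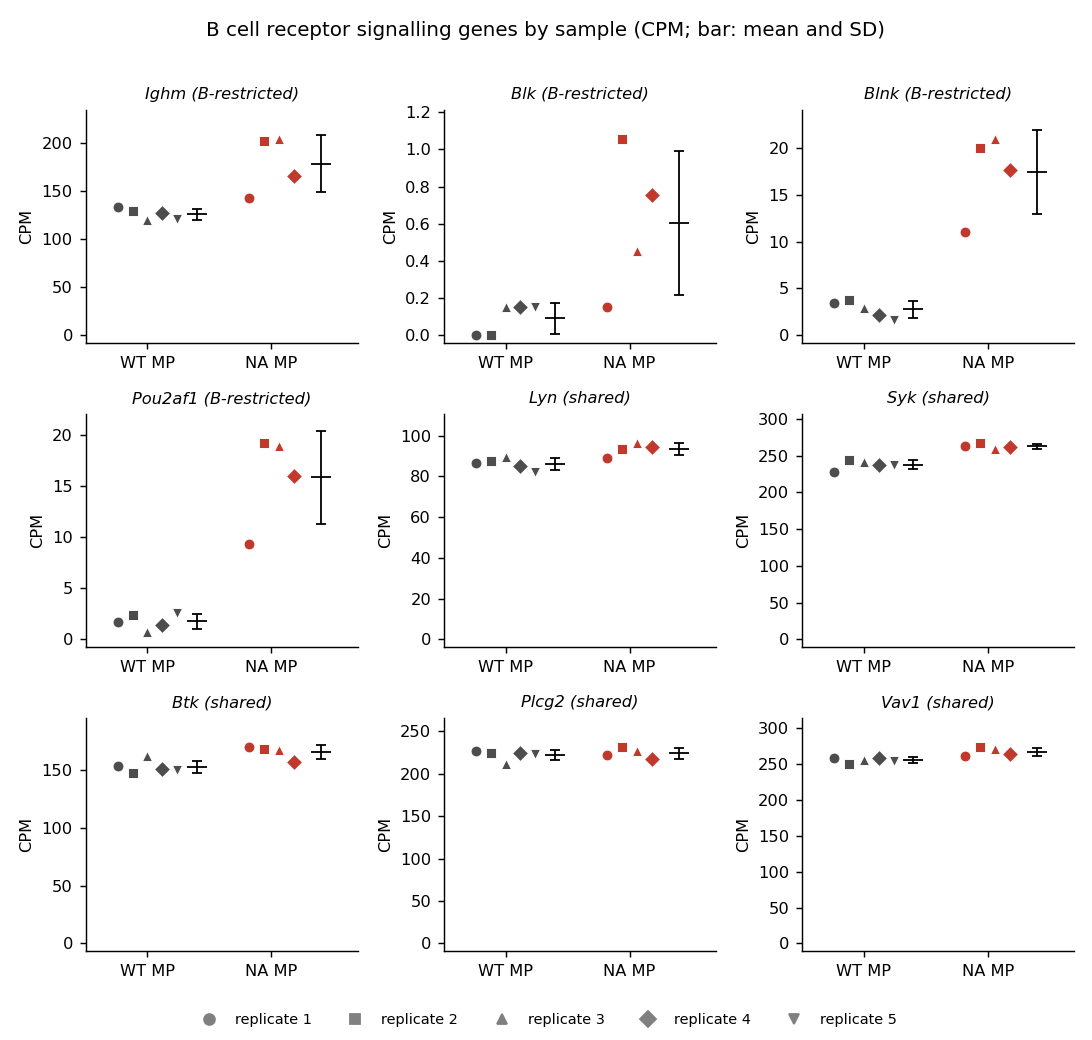
Level of each of the 9 genes in every sample, in CPM on a linear axis, with WT MPs in grey and NA MPs in red and the mean with its SD beside them. Blnk and Pou2af1 stand far apart between the groups, Ighm stands apart with NA MP replicate 1 closest to the WT MPs, and the 5 shared genes have fitted changes of at most 10.6%.

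Ighm (ENSMUSG00000076617, an immunoglobulin constant gene on the minus strand, chr12:113418558-113422730 in mm10) encodes the constant part of the μ heavy chain. Its level was 143, 201, 204 and 165 CPM in NA MP replicates 1 to 4, and 133, 129, 119, 127 and 121 CPM in WT MP replicates 1 to 5. All NA MPs were thus above all WT MPs, and replicate 1 was the nearest to them. The means were 178 ± 29.4 CPM (SD, n = 4) and 126 ± 5.75 CPM (SD, n = 5), and the log2 fold change was 0.50 (SE 0.113, adjusted p = 0.011). The difference of the means, 52.5 CPM (SE 14.9), was the largest of the 9 members although the fold change was the smallest of the tested B-restricted ones. Transcripts of the unrearranged locus are known from progenitors that make no heavy chain, and counts per gene do not separate these from rearranged ones.

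The variable and light chain genes of the antibody loci held few counts beside Ighm. Over the 27 Ighv genes of the table the sums were 0, 5, 13 and 1 counts in NA MPs and 0, 0, 0, 0 and 1 in WT MPs. Igkc, the κ constant gene, summed to 9 counts in the 4 NA MPs and to 31 in the 5 WT MPs, and Iglc2 was at 0 in every sample. The heavy chain constant gene itself held between 792 and 1349 counts in every sample. These segments were chosen after the Ighm values were seen.

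Blk (ENSMUSG00000014453, minus strand, chr14:63372836-63417037), a Src family kinase of B cells, did not pass the filter. Its counts were 1, 7, 3 and 5 in NA MPs and 0, 0, 1, 1 and 1 in WT MPs. NA MP replicate 1 and 3 WT MPs thus held the same single count. The unrounded expected counts summed to 16.6 and 2.95, taken as 17 and 3 counts, a ratio of 7.01 per count sequenced, with an exact 95% interval of 2.03 to 37.3 that covers counting error only. Tested without the filter its adjusted p was 0.00864 by edgeR and 0.0675 by DESeq2.

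Blnk (ENSMUSG00000061132, minus strand, chr19:40928927-40994535), the adaptor that links SYK to BTK and PLCG2, was at 11.02, 20.1, 21.0 and 17.6 CPM in NA MPs. In WT MPs it was at 3.46, 3.75, 2.86, 2.10 and 1.653 CPM. The groups did not overlap: the lowest NA MP, replicate 1, was well above the highest WT MP. The log2 fold change was 2.65 (SE 0.232, adjusted p = 3.929e-07), from 2.76 ± 0.886 CPM (SD, n = 5) in WT MPs to 17.4 ± 4.5 CPM (SD, n = 4) in NA MPs. WT MPs were not free of Blnk, with 11.2 to 24.8 counts a sample.

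Pou2af1 (ENSMUSG00000032053, plus strand, chr9:51213708-51240080), the octamer coactivator, showed the largest fold change of the tested members. It was at 9.36, 19.2, 18.9 and 16.0 CPM in NA MPs and at 1.652, 2.40, 0.751, 1.35 and 2.55 CPM in WT MPs. NA MP replicate 1 was again the lowest of its group and still above every WT MP. The log2 fold change was 3.17 (SE 0.307, adjusted p = 1.061e-05), from 1.74 ± 0.748 CPM (SD, n = 5) to 15.8 ± 4.55 CPM (SD, n = 4). WT MP replicate 3 held 5.09 counts, so this gene has no test where each sample must hold at least 10 counts.

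The promoters of the members were searched for the octamer and for other motifs. Whether these genes are regulated through them was not tested. The set of RefSeq (GRCm38.p6) promoters used here held 7 windows for 6 of the 9 members: Blnk, Pou2af1, Syk, Btk, Plcg2 and Vav1. Windows for Ighm, Blk and Lyn were not in that set. In the 250 bases before the start, on both strands, the octamer ATGCAAAT occurs in 1.601% of 32851 mouse promoters and its last 7 letters, TGCAAAT, in 3.565%. Each octamer match is also a match of the shorter form. The ETS core GAGGAA, a form bound by the myeloid and B cell factor PU.1, occurs in 23.253%. The EBF1 core CCCNNGGG occurs in 11.817% and the E-box CAGCTG in 13.001%. The stretches below are in lower case, 5′ to 3′ in the direction of the gene, with 1 match in capitals: the octamer in Blnk, its shorter form in Pou2af1 and the ETS core in Vav1, where an EBF1 core in the same stretch is left in lower case. They come from chr19:40994333-40994362 on the minus strand (within an exon of Blnk in GENCODE), chr9:51213440-51213525 on the plus strand and chr17:57279029-57279099 on the plus strand (neither within an exon).
Blnk: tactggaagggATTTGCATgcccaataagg
Pou2af1: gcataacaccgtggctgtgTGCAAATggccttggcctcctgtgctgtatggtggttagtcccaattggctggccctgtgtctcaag
Vav1: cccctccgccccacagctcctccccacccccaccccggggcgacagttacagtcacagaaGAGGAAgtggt

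Of the 6 members, only Blnk held the full octamer in these 250 bases, at position -130 from the RefSeq start and in reverse orientation. Pou2af1 held the shorter form at -231. The ETS core was found at -11 in Vav1 and at -9 in 1 of the 2 Syk windows, the EBF1 core was found at -39 in Vav1, and the E-box was found in none of the 7 windows. A match is a run of letters and not a known binding site.

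Lyn (ENSMUSG00000042228, plus strand, chr4:3678115-3813122), the first kinase of the cascade and also the kinase that starts its inhibitory arm, ranged from 89.2 to 96.3 CPM in NA MPs and from 82.0 to 89.7 CPM in WT MPs. Of the 4 NA MPs, 3 were above the highest WT MP, and replicate 1 was not. Its log2 fold change was 0.12 (SE 0.0444, adjusted p = 0.038; exact two-sided permutation p = 0.0317). This call was lost in 11 of 19 alternatives, among them DESeq2 (adjusted p = 0.17) and the fits without NA MP replicates 2, 3 or 4 or WT MP replicates 2, 4 or 5. Lyn overlaps the antisense gene Gm26857, and whether the counting used strand is not given.

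Syk (ENSMUSG00000021457, plus strand, chr13:52583173-52648792), the kinase that carries the signal from the receptor, was at 264, 267, 259 and 262 CPM in NA MPs. In WT MPs it was at 228, 244, 241, 238 and 238 CPM. Every NA MP was above every WT MP, and the NA MPs lay closer to each other (3.35 CPM, SD, n = 4) than the WT MPs (6.10 CPM, SD, n = 5). The log2 fold change was small, 0.14 (SE 0.0313, adjusted p = 0.000226), and it stayed past the threshold in all 19 alternatives. Its difference of 25.1 CPM (SE 3.2) was larger than those of Blnk, 14.7 CPM (SE 2.28), and of Pou2af1, 14.1 CPM (SE 2.3).

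Btk (ENSMUSG00000031264, minus strand, chrX:134542336-134583570), the Tec family kinase that activates PLCG2, ranged from 157 to 170 CPM in NA MPs and from 147 to 162 CPM in WT MPs. NA MP replicate 4 was below WT MP replicate 3, and the other 3 NA MPs were above every WT MP. Its log2 fold change was 0.12 (SE 0.037, adjusted p = 0.011; exact two-sided permutation p = 0.0317). With DESeq2 it was 0.11 and the adjusted p was 0.0615.

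Plcg2 (ENSMUSG00000034330, plus strand, chr8:117498291-117635142), the phospholipase that releases the calcium signal, was at 224 ± 6.07 CPM (SD, n = 4) in NA MPs and 222 ± 5.92 CPM (SD, n = 5) in WT MPs. The groups overlapped throughout, and the log2 fold change of 0.013 (SE 0.0328, adjusted p = 0.805) was smaller than its error. Its sign changed in 4 of 19 alternatives. Vav1 (ENSMUSG00000034116, plus strand, chr17:57279100-57328031), the exchange factor that activates Rac, ranged from 260.4 to 272 CPM in NA MPs and from 249.6 to 258 CPM in WT MPs. The 2 ranges did not overlap (exact two-sided permutation p = 0.0159, the smallest that 4 against 5 samples allow), but in the fit over all genes the log2 fold change was 0.065 (SE 0.0307, adjusted p = 0.1).

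**Figure D2:**
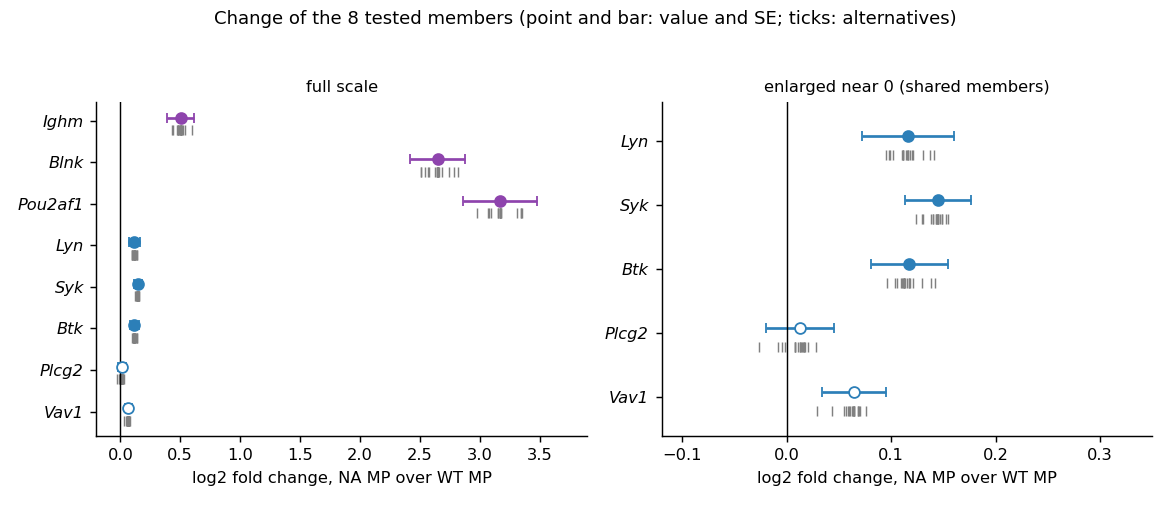
Log2 fold change of NA MPs over WT MPs for the 8 tested members, on the full scale (left) and enlarged for the 5 shared members (right). Points and bars are the value and its SE, filled points had an adjusted p under 0.05, and grey ticks are the values of the alternatives. The B-restricted genes (purple) run from 0.50 to 3.17 and the shared genes (blue) from 0.013 to 0.14, and only the ticks of Plcg2 fall on both sides of 0.

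The difference between the classes was tested within samples, as the log2 ratio of each tested B-restricted member to each shared member. This test was chosen after the values were seen. Blnk and Pou2af1 already separated the groups by more than any shared member varied over all samples. Their ratios therefore had to separate, and they add no support to the values above. All 15 ratios were higher in NA MPs, by 0.344 (Ighm to Syk) to 3.01 (Pou2af1 to Plcg2) on the log2 scale. For 13 of the 15 ratios, the groups did not overlap (exact two-sided permutation p = 0.0159, adjusted over the 15 ratios 0.0183). The others were Ighm to Syk (adjusted p = 0.034, exact permutation) and Ighm to Btk (adjusted p = 0.0476, exact permutation). The ratios share genes and samples, so they are not 15 separate results.

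Per kilobase of exon, the order of the members changed between the groups at its upper end. In WT MPs Vav1 (69.2 ± 0.962 CPM per kb, SD, n = 5) and Ighm (66.6 ± 3.05) came first and their ranges overlapped. They were followed by Plcg2 and Btk at 51.7 and 48.5 CPM per kb, also with overlapping ranges, then by Syk at 25.4 and Lyn at 21.2. In NA MPs Ighm came first at 94.5 ± 15.6 CPM per kb (SD, n = 4), above Vav1 at 72.3 ± 1.5, without overlap. Btk and Plcg2 again could not be ordered, at 52.6 and 52.1 CPM per kb. Pou2af1, Blnk and Blk were the lowest 3 in both groups. They were at 6.22, 2.91 and 0.224 CPM per kb in NA MPs and at 0.684, 0.461 and 0.0334 in WT MPs, where the ranges of Pou2af1 and Blnk overlapped. Ighm, counted here as B-restricted, was thus at the level of a shared member in the WT MPs, and bulk counts do not tell which cells carried it.

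The tested B-restricted members varied alike over the 4 NA MPs. Replicate 1 was the lowest for Ighm, Blk, Blnk and Pou2af1, at 80.2%, 25%, 63.2% and 59.1% of the NA MP mean. Replicates 2 and 3 were the highest for Ighm, Blnk and Pou2af1, at 113% to 121% of the mean, whereas Blk, at 7 counts or fewer, was at 75% in replicate 3. The same order, 1 below 4 and both below 2 and 3, was seen in Cd79a, Cd79b, Igll1, Vpreb1, Rag1, Ebf1, Pax5 and Dntt. It was not limited to B-lineage genes, since Mpo, a gene of myeloid granules, also had it within 95.2% to 104% of its mean. Kit ran the other way, from 106% in replicate 1 to 94.8% in replicate 2. Of the shared members only Vav1 had the order of the B-lineage genes, within 97.6% to 102% of its mean. Lyn was also lowest in replicate 1, while Syk was lowest in replicate 3 and Btk and Plcg2 in replicate 4.

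**Figure D3:**
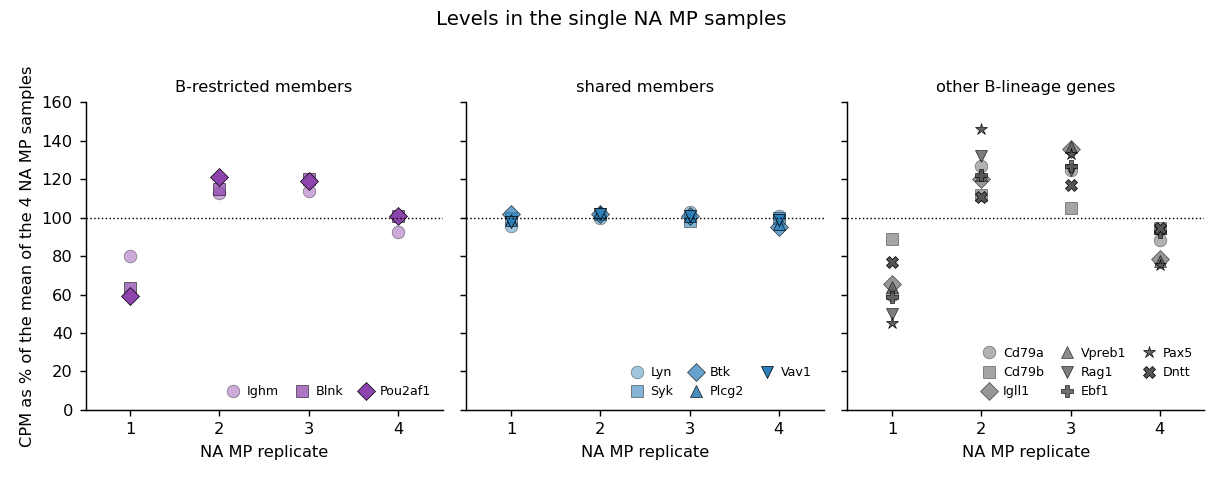
Level of each gene in the 4 NA MP samples as a percent of its NA MP mean, on a linear axis from 0, for the 3 tested B-restricted members, the 5 shared members and 8 other B-lineage genes. In the left and right panels replicate 1 is below the mean and replicates 2 and 3 above it for every gene shown, and the shared members stay within 95% to 103% of their means.

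The rise over the WT MP mean can be set against that of Cd79a, which encodes a signalling chain of the receptor. The rise of Pou2af1 was 0.536, 0.534, 0.535 and 0.647 of the rise of Cd79a in NA MP replicates 1 to 4, and that of Blnk was 0.581, 0.531, 0.569 and 0.676. These ratios differed by at most 1.27-fold over the samples, although Cd79a itself ran from 16.5 to 34.9 CPM. The ratio of Ighm was less even, at 1.21, 2.32, 2.44 and 1.79. This is a description of 4 samples.

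Markers of pro-B and pre-B cells moved with the B-restricted members. Of the 12 in the list, among them Cd79a, Cd79b, Vpreb1, Igll1, Rag1, Rag2, Ebf1, Pax5, Dntt, Il7r and Cd24a, 11 were higher in NA MPs and Cd24a was lower. They summed to between 554 and 725 CPM in NA MPs and between 436 and 464 CPM in WT MPs, with Cd24a alone at means of 347 and 388 CPM, and without Cd24a to between 212 and 373 CPM and between 54.8 and 59.5 CPM. Their part in the members' change was not tested. Beside the counts of markers called here, 17.9% of all tested genes were higher and 16.3% were lower. The lineage antibodies of the sort included B220 but not the IL-7 receptor. Of 8 mature B cell genes, Ms4a1, Fcer2a, Cr2 and Ccr6 held at most 3 counts in every sample, and the sum of the 8 was 3.32 to 5.88 CPM in NA MPs and 1.95 to 3.15 CPM in WT MPs. The plasma cell genes summed to 3.62 to 4.68 CPM and 4.51 to 6.61 CPM. Of the 9 plasmacytoid dendritic cell genes, 5 were tested and 4 were higher. Spib rose by 3.2 on the log2 scale, from 0.451 to 4.3 CPM. Tcf4, Bst2 and Runx2 rose by 0.537, 0.205 and 0.197. Irf8 did not pass the threshold, at 327 CPM in NA MPs and 334 CPM in WT MPs. Siglech and Pacsin1 held at most 3 counts in every sample. The sums, mostly from Irf8, were 503 to 625 CPM and 502 to 539 CPM. The 8 T cell genes summed to 18.1 to 19.8 CPM in NA MPs and 8.86 to 13.8 CPM in WT MPs, mostly from Lat, with Cd3e and Cd3g at 0 in every sample. The 6 NK cell genes summed to 287 to 309 CPM and 250 to 273 CPM, mostly from Nkg7, with Gzma at 3 counts or fewer in every sample. Erythroid markers fell, 7 of 8, from sums of 888 to 961 CPM in WT MPs to 543 to 680 CPM in NA MPs.

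The other genes of the pathway were taken from a list drawn up with earlier results of these data known. Of 92 further genes listed by role, 89 were in the table and 81 were tested, and among these 35 were higher and 8 lower, around a median of 0.0837 on the log2 scale. All 9 tested B-restricted genes were higher (median 3.23). Of the 72 tested shared genes, 26 were higher and 8 were lower (median 0.0548). As shares, 36.1% of these shared genes were higher and 11.1% were lower, beside 17.9% and 16.3% of all tested genes. The classes overlapped here: the shared genes Inppl1, Lat2 and Pirb changed by more than the B-restricted Cd79b, Cd22, Cd72 and Siglecg. Cd72 and Siglecg, though taken as B-restricted, were already at 26.0 and 56.6 CPM in WT MPs.

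Among the parts of the receptor, Cd79a rose from 2.25 ± 0.281 to 27.5 ± 8.8 CPM (log2 fold change 3.60, adjusted p = 7.056e-05). Igll1 and Vpreb1, which make the surrogate light chain, rose by 3.41 and 3.23, and Vpreb3 rose by 3.48. Vpreb2, too low to be tested, held 71 counts in NA MPs and 2 in WT MPs. Cd79b, the partner of Cd79a, was already at 24.5 ± 1.34 CPM in WT MPs and rose to 41.5 ± 4.21 CPM (0.76, adjusted p = 3.544e-12). Cd81, a tetraspanin of the coreceptor that is found on many cells, fell by 0.16 on the log2 scale (adjusted p = 0.0049).

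Among the tested B-restricted genes, members included, the log2 fold change was larger where the level in WT MPs was low, except for Cd22. The WT MP level is the base of the fold change, so this is a description and not a separate result. Cd79a, Igll1, Vpreb1, Vpreb3, Blnk and Pou2af1 were at 1.14 to 2.82 CPM in WT MPs and rose by 2.65 to 3.60 on the log2 scale. Ighm, Cd79b, Cd72 and Siglecg were at 24.5 to 126 CPM in WT MPs and rose by 0.16 to 0.76. As differences in CPM the first 6 genes rose by 11.8 to 27.3 and the other 4 by 6.51 to 52.5. Cd22, an inhibitory receptor, was at 1.47 CPM in WT MPs and rose by 0.85 (adjusted p = 0.0141) with overlap between the groups.

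Among inhibitory receptors and the enzymes behind them, 8 of the 12 tested genes were higher and none were lower. Of all tested genes 17.9% were higher and 16.3% were lower. Cd72 rose by 0.60 (adjusted p = 1.528e-09) and Pirb, a receptor of myeloid and B cells, by 0.99 (adjusted p = 8.704e-06), while Fcgr2b, the inhibitory Fc receptor, was at 78.7 and 78.5 CPM. Inppl1, the phosphatase SHIP2, had the largest change of the shared genes, from 7.57 ± 1.03 to 31.9 ± 1.89 CPM (2.07, adjusted p = 3.616e-23), and it overlaps antisense genes. The related phosphatase Inpp5d (SHIP1) rose by 0.13, Ptpn6 (SHP-1) by 0.085 and the adaptor Dok3 by 0.47 (adjusted p = 9.5e-13). Of the genes that set the activity of Src kinases, Ptprc (CD45, of which B220 is an isoform) rose by 0.26 (adjusted p = 5.507e-09) and Csk by 0.12 (adjusted p = 0.0025).

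Adaptors were higher in 6 of 9 tested genes and lower in 1, where 17.9% and 16.3% of all tested genes were. Lat2 (NTAL), a membrane adaptor of B and myeloid cells, rose from 46.7 ± 3.38 to 126 ± 6.34 CPM (1.44, adjusted p = 1.068e-28) and overlaps the antisense gene Rfc2. Dapp1, Pik3ap1 (BCAP) and Sh3bp2 rose by 0.38, 0.22 and 0.21. In the small GTPase branch, which VAV1 opens, 4 of the 5 tested genes were higher: Rac2, the haematopoietic Rac, rose by 0.23 (adjusted p = 4.26e-08), Dock2, a Rac exchange factor like VAV1, by 0.16, Rac1 by 0.088 and Cdc42 by 0.081.

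Below PLCG2, 3 of 11 calcium and NFAT genes were higher and none were lower. Nfatc2, Itpr3 (an IP3 receptor) and Nfatc1 rose by 0.55, 0.45 and 0.23. In the protein kinase C and NF-κB branch 4 of 12 genes were higher, with Bcl10 at 0.17, and Map3k7 (TAK1) fell by 0.23 (adjusted p = 5.988e-05). The PI3K and Akt genes had 1 higher, Pik3cd, the leukocyte p110δ subunit (0.11, adjusted p = 0.0045), and 2 lower, Pik3cb (-0.36, adjusted p = 0.000112) and Pik3r2 (-0.19). Of the 10 tested Ras and ERK genes, Sos2 was higher (0.12) and 2 were lower, with Sos1 at -0.30 (adjusted p = 6.386e-05). The ubiquitin ligase Cbl fell by 0.25 (adjusted p = 0.0027). Together 20.9% of the 43 tested genes of the calcium, protein kinase C, PI3K and Ras branches were higher and 11.6% were lower, where 17.9% and 16.3% of all tested genes were.

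**Figure D4:**
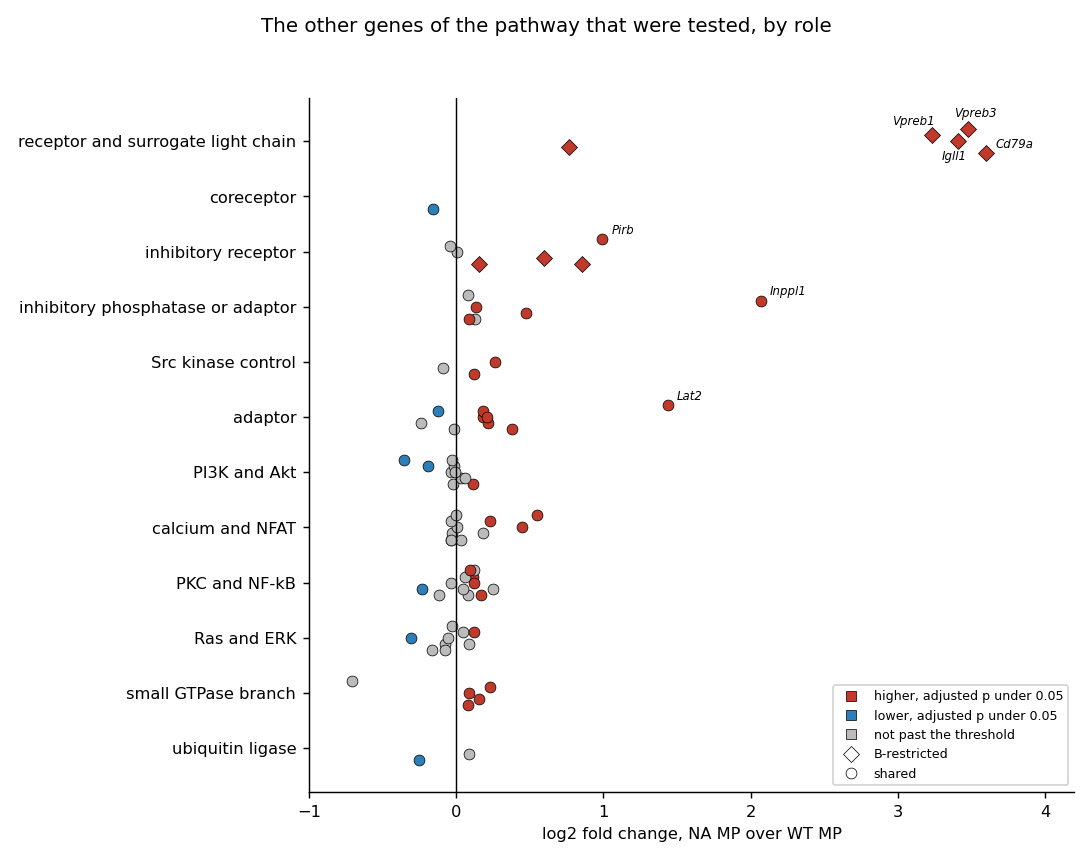
Log2 fold change of NA MPs over WT MPs for 79 of the 81 tested further genes of the pathway, 1 row per role, from the receptor at the top to ubiquitin ligases at the bottom (the spread of points within a row has no meaning). Diamonds are B-restricted genes and the 8 shown are all higher; among the shared genes shown (circles) only Inppl1 and Lat2 lie beyond 1, and 7 are lower.

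The members were also set beside their closest relatives, many of which serve the same step in T cells, mast cells or myeloid cells. Of 18 relatives, 14 were tested, 9 were higher and 1 was lower (median 0.322 on the log2 scale). Among all tested genes 17.9% were higher and 16.3% were lower. In the Src family, Lck, the kinase of the T cell receptor, rose from 1.65 ± 0.353 to 7.92 ± 1.19 CPM (2.25, adjusted p = 5.142e-13). Fgr rose by 0.77 and Fyn by 0.62. In the Tec family Bmx rose by 0.53 and Tec by 0.19.

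Plcg1, the relative of Plcg2, rose from 53.8 ± 2.0 to 73.4 ± 3.95 CPM (0.45, adjusted p = 1.018e-09) and overlaps antisense genes. The relatives of Vav1 did not pass the threshold, with Vav3 at 88.2 and 86.7 CPM. Beside Blnk, Clnk, its relative of mast and other cells, rose from 2.46 to 6.60 CPM (1.42, adjusted p = 3.227e-08) and Lcp2 (SLP-76), the T cell and myeloid adaptor, rose by 0.12 (adjusted p = 0.0248). The partners of POU2AF1 did not rise with it. Pou2f2 (OCT-2) was at 16.8 and 17.3 CPM (-0.046, adjusted p = 0.748), and Pou2f1 (OCT-1) fell by 0.19 (adjusted p = 0.0057), a call lost after correction for GC content and length. Zap70, the relative of Syk, held 7 counts over the NA MPs and 4 over the WT MPs and was not tested.

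**Figure D5:**
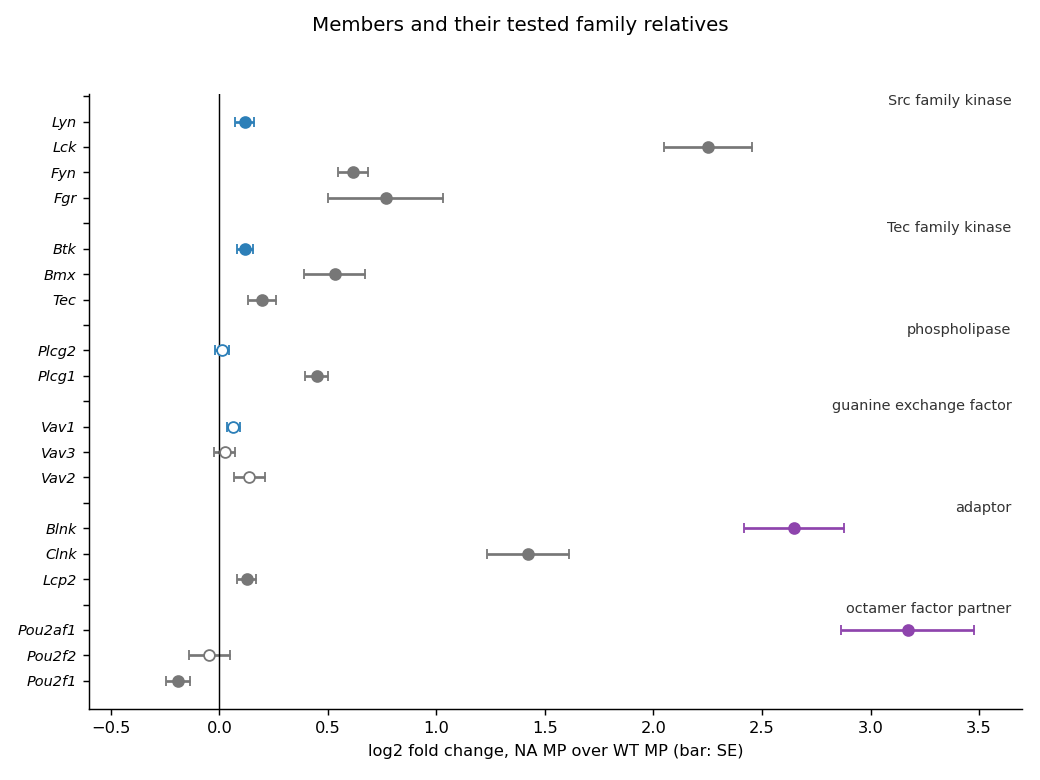
Log2 fold change with its SE for the tested members (purple for B-restricted, blue for shared) and 12 of their 14 tested relatives (grey), by family. Filled points had an adjusted p under 0.05. Lck, Fgr, Fyn, Tec, Bmx, Plcg1 and Vav2 lie to the right of the tested members of their families. Clnk lies between Lcp2 and Blnk, and neither octamer factor lies to the right of 0.

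Outside these lists, the genes nearest to each tested B-restricted member were sought by the root mean square distance over the 9 samples of log2 CPM, set to 0 at the WT MP mean. For Ighm they were Gsn, Tifa and Plxnd1, at 0.0846 to 0.0878. For Blnk they were Bst1 (0.22), Id3 (0.32) and Bfsp2 (0.348), and for Pou2af1 they were Chst3 (0.316), Akap12 (0.393) and Scn4b (0.424). The distance takes in the group difference, so each of these genes was also higher in NA MPs. Bst1, Id3 and Scn4b had WT MP means of 0.451, 0.27 and 0.33 CPM, at or below the floor of 3 counts. Their fitted log2 fold changes were 3.24, 3.53 and 4.06, above those of Blnk (2.65) and Pou2af1 (3.17).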

How the data were processed

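The authors sequenced polyA RNA (TruSeq kit) and deposited 1 table of RSEM expected counts for 37980 genes in 9 samples, without normalization between samples. The submitters' notes name build mm10. The RSEM version, the annotation release and the use of strand are not given in the sources used here. Overlap with a gene on the other strand was not limited to the genes flagged above. Vpreb1, Cd72, Cd22, Cd81, Ptpn6, Itpr3, Rac1, Pik3r2 and Pou2f1 are among the others that have it.

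Symbols, positions and exon lengths came from GENCODE M21 (GRCm38, the same build), and promoters from RefSeq. The expected counts were rounded and tested with edgeR 4.0.16 (R 4.3.3): TMM, filterByExpr (minimum count 10), robust quasi-likelihood test, Benjamini-Hochberg adjustment over the 11966 kept genes, threshold 0.05. Log2 CPM used a prior count of 2. Exact two-sided permutation tests ran over the 126 ways to choose 4 of 9. Tested on simulated data (11863 genes, 200 changed), the fit recovered 92% of 2-fold and 79% of 1.41-fold changes, with 7.57% of calls false. That share is above the threshold of 0.05. The simulation held far fewer changed genes than the data and no change as small as those of the shared members, so it does not cover their calls. Replicate numbers did not pair the samples: correlations of same-numbered samples were -0.0235 to 0.0558. DESeq2 1.42.0, other normalizations and filters, the 0.01 threshold, unrounded counts, a GC and length correction, a replicate block and leaving out each sample were alternatives.

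Members and lists were chosen with earlier results of these data known. Named in the text are the 9 members, up to 4 changed genes per role with the largest change and the highest-expressed one that did not pass, marker genes, and 3 nearest genes per tested B-restricted member. Vpreb2, Zap70 and the antibody segments were named after their values were seen. Some genes that meet this rule are not reported here.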

Additional observations from a re-analysis of the deposited data

Results flagged for a closer look

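Of the 140 gene and group combinations examined for 1 sample far from the others of its group, 11 were flagged by Dixon's test, where chance gives about 7.0 (1 in 20). Among the members, Plcg2 was at 212 CPM in WT MP replicate 3, against 223 to 227 CPM in the other WT MPs.

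In the other genes of the pathway, WT MP replicate 1 stood apart for Cd81 at 111 CPM (others 98.8 to 102), for Pik3ap1 at 58.3 CPM (others 67.3 to 70.6) and for Cbl at 106 CPM (others 124 to 130). Lat2 was at 40.8 CPM in WT MP replicate 2 (others 46.9 to 49.0), and Akt1 was at 250 CPM in WT MP replicate 5 (others 266 to 270). NA MP replicate 4 stood apart for Csk at 227 CPM (others 245 to 248) and for Ikbkb at 184 CPM (others 173 to 175), and NA MP replicate 3 for Cblb at 33.2 CPM (others 36.5 to 37.0).

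Among the relatives, Clnk was at 8.0 CPM in NA MP replicate 1 (others 6.03 to 6.19), the NA MP in which the B-restricted members were lowest. Lcp2 was at 94.1 CPM in NA MP replicate 4 (others 90.7 to 91.0).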

How the results depend on the processing

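Blnk and Syk kept their direction and their call in all 19 alternatives and Pou2af1 in the 18 that tested it, with log2 fold changes of 2.51 to 2.82, 0.124 to 0.154 and 2.98 to 3.36. The members higher in NA MPs numbered 3 at an adjusted p under 0.01 and 4 to 6 otherwise, and the higher shared members numbered 1 with DESeq2 and 1 at an adjusted p under 0.01. Plcg2 turned to -0.00824 with library sizes alone and to -0.0268 after the GC and length correction, and ran from -0.00466 to 0.0281 as single samples were left out. The cause of these shifts was not tested. The replicate block, for numbers that did not pair the samples, gave 4 changed members and 3703 changed genes in place of 4093: Ighm (0.48, adjusted p = 0.0912) and Lyn (0.099, adjusted p = 0.133) lost their calls, and 0 of 4 numbers correlated best with their own. DESeq2 called 3038 genes and the 0.01 threshold 2876. At this depth Blk could not be measured beyond its summed counts.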
